A study of Mus musculus with 10 samples.

Results

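Inhibitory receptors other than PD-1 and CTLA4, with their ligands and an exhaustion regulator, were examined in mouse melanomas as a list of 9 genes: Lag3, Havcr2, Vsir, Btla, Cd160, Entpd1, Tox, Lgals9 and Tnfrsf14. They were picked by gene symbol from a table of 27919 genes, and all 9 were present. The samples were tumors of B16F10, a mouse melanoma line, in which either Ly86, encoding the secreted protein MD-1, or a vector was overexpressed. All the mice had received 4 rounds of antibodies to PD-1 and CTLA4, so no tumor without this blockade is included. There were 4 Ly86 tumors and 3 Vector tumors in 10 libraries of polyadenylated RNA. Ly86 tumor 1, Vector tumor 1 and Vector tumor 2 had each been cut in 2 and sequenced as separate pieces, and each such pair of values was averaged to give 1 value per tumor. The labels give neither the construct nor whether the overexpressing cells were 1 clone, and they number the tumors without naming the mice. The p-values therefore cover only the variation among these tumors, which may be technical in part.

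T cells that meet antigen for a long time take on a state called exhaustion, in which several inhibitory receptors are displayed together and effector functions weaken. Lag3 binds MHC class II, and Havcr2, also called TIM-3, binds galectin-9, the product of Lgals9. Btla and Cd160 share a ligand, HVEM, encoded by Tnfrsf14, which is itself a receptor of the TNF receptor family. Vsir encodes VISTA, an inhibitory protein found on myeloid cells as well as T cells. Entpd1 encodes CD39, which degrades extracellular ATP on the way to adenosine and is carried by macrophages, endothelium and exhausted T cells. Tox is a nuclear factor needed for the exhausted state. Several of these genes are therefore active both in T cells and in myeloid cells, and a tumor extract mixes them. In such bulk samples, fewer cells of a type and less RNA per cell cannot be told apart.

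Levels are given as TPM, transcripts per 1000000 of a library corrected for length, and differences as log2(TPM + 1), the scale of the deposited values. Read depth is unknown, since TPM does not retain it, and between 19304 and 21882 genes were above 0 in a library. Ly86 itself held 49.1 and 81.9 TPM in the pieces of Ly86 tumor 1 and 53.2, 58.9 and 75.4 TPM in Ly86 tumors 2 to 4, against 6.24 and 9.88 TPM in the pieces of Vector tumor 1, 80.9 and 7.85 TPM in those of Vector tumor 2 and 30.3 TPM in Vector tumor 3. Every Ly86 tumor was above every Vector tumor on the log2 scale, but 1 library labelled Vector, the first piece of tumor 2, was as high as the Ly86 libraries. Myeloid cells make Ly86 themselves, and whether the introduced copy is counted in these values is not stated, so the gene is a weak check of the labels. Markers of T cells and of myeloid cells, that is macrophages and monocytes, averaged higher in the Ly86 group. The mean of 15 T cell markers was 2.82 ± 0.44 log2(TPM + 1) in Ly86 tumors and 1.86 ± 0.97 in Vector tumors, and that of 16 myeloid markers 6.32 ± 0.17 in Ly86 tumors and 5.18 ± 1.02 in Vector tumors (SD, n = 4 and 3). The mean of 7 melanoma markers was 10.03 ± 0.26 in Ly86 tumors and 10.06 ± 0.23 in Vector tumors. Markers of fibroblasts averaged 6.32 ± 0.57 in Ly86 tumors and 4.71 ± 0.84 in Vector tumors, those of dendritic cells 2.22 ± 0.15 in Ly86 tumors and 1.87 ± 0.36 in Vector tumors, and those of endothelium 3.51 ± 0.32 in Ly86 tumors and 3.50 ± 0.30 in Vector tumors. NK and B cell markers were low. All 5 NK cell markers and 5 of 6 B cell markers averaged below 1 TPM. The first piece of Vector tumor 2 stood apart, with a T cell score of 3.79 and a myeloid score of 7.62, each the highest of the 10, whereas the second piece of that tumor had 1.63 and 3.79. Its melanoma score, 9.34, was the lowest.

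Promoter sequences show where the genes of this list start and which short motifs stand there. RefSeq sequences of build GRCm38.p6 were found for 7 of the 9 genes, all but Lag3 and Tox, while the deposited values were made on mm39. The 250 bases before the start are shown for Vsir, the gene with the smallest p in the comparison below, for Havcr2 and Btla, and for Lgals9 and Tnfrsf14, which encode a ligand of Havcr2 and of Btla. They lie at chr10:60346601-60346850, plus strand, chr11:46454681-46454930, plus strand, chr16:45224087-45224336, plus strand, chr11:78984925-78985174, minus strand and chr4:154928078-154928327, minus strand. Capitals mark matches on either strand to GAGGAAGT, an ETS and PU.1 type motif, TGTGGT of RUNX factors, TTCNNNGAA of STAT factors and GAAANNGAA of interferon regulatory factors.
Vsir: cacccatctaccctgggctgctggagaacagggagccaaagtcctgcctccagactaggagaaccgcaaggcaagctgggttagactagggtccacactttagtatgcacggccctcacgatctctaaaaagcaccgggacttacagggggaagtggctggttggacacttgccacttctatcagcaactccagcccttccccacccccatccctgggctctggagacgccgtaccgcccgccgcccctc
Havcr2: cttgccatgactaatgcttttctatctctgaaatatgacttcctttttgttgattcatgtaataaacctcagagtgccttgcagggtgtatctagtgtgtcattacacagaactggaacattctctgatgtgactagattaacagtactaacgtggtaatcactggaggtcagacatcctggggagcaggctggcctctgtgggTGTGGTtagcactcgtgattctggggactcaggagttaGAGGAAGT
Btla: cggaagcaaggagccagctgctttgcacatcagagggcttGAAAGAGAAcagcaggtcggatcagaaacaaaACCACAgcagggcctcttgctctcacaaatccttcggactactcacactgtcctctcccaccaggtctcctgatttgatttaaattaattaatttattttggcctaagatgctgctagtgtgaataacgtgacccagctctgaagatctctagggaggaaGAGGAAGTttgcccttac
Lgals9: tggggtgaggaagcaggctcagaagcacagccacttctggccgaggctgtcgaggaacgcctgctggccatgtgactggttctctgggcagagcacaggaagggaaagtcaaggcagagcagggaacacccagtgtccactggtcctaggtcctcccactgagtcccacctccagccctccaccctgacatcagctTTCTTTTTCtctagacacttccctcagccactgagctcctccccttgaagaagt
Tnfrsf14: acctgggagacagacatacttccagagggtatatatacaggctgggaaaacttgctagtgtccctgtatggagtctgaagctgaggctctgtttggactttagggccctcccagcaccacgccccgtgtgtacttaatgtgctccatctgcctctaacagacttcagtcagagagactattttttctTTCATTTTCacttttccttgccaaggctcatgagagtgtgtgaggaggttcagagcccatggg

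GAGGAAGT stood at bases 8 to 1 before the start of Havcr2 and 18 to 11 before that of Btla, where 2.44% of 32851 mouse promoters of this length held it. TGTGGT was present in the same pair of promoters, against 14.0% of all. GAAANNGAA ended 46 bases before the start of Lgals9 and 55 before that of Tnfrsf14, and was also present in Btla at 210 to 202 bases before the start, against 7.13% of all promoters. TTCNNNGAA was in none of the 5 and in 7.02% of all. Among the promoters not shown, Cd160 had TTCNNNGAA at bases 234 to 226 before 1 of its starts and TGTGGT before each start. Those of Entpd1 held none of the 4 motifs. The Vsir window held none of the 4 motifs, which says only that these letters are not there. The motifs were chosen after the sequences had been seen, and the matches are a description.

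At the level of single genes, Lgals9 was by far the most abundant member and Btla, Cd160 and Tox were near the lower limit of 1 TPM used for testing. Lgals9 averaged 195.8 ± 22.9 TPM in Ly86 tumors and 159.3 ± 55.7 TPM in Vector tumors. Next came Tnfrsf14, Vsir and Entpd1, with 27.3 ± 15.7, 25.9 ± 4.71 and 25.6 ± 14.6 TPM in Ly86 tumors and 14.0 ± 5.37, 15.9 ± 11.3 and 13.9 ± 9.42 TPM in Vector tumors. These 3 neighbours lay within each other's spread. Havcr2 and Lag3 followed with 7.03 ± 2.52 and 6.24 ± 2.96 TPM in Ly86 tumors and 5.61 ± 3.90 and 3.00 ± 2.33 TPM in Vector tumors, again within their spread and below the 3 genes before them in both groups. Tox, Cd160 and Btla were lowest, at 2.18 ± 1.19, 1.47 ± 0.54 and 1.14 ± 0.33 TPM in Ly86 tumors and 0.92 ± 0.70, 0.71 ± 0.35 and 0.94 ± 0.59 TPM in Vector tumors (SD, n = 4 and 3 throughout). All 9 had a mean of at least 1 TPM over the tumors, Btla narrowly at 1.06 and Cd160 at 1.14.

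The comparison of Ly86 with Vector tumors asked whether overexpression of Ly86 went with a difference in these genes under checkpoint blockade. All 9 had a higher mean in the Ly86 tumors, where 43.8% of the 14556 genes tested did, and their median difference was 0.75 log2 units against -0.037 for all genes tested. Higher means were also found for all 15 T cell, all 16 myeloid and all 5 fibroblast markers, and for 3 of 7 melanoma markers. None of the 9 members passed the limma test, in which 0 of the 14556 genes (0.0%) had an adjusted p under 0.05. The members' adjusted p lay between 0.437 and 0.829. At an unadjusted p under 0.05 there was 1 member of 9, Vsir, where 5.78% of all genes were higher at that level. Vsir was also the single member whose groups did not overlap, where 4.71% of all genes were separated in that direction. Dropping the first piece of Vector tumor 2 gave larger differences for the 8 members still tested, 2.05 for Vsir, 1.66 for Entpd1, 1.50 for Lag3, 1.01 for Tnfrsf14, 0.91 for Tox, 0.85 for Havcr2, 0.74 for Cd160 and 0.50 for Lgals9, and Btla fell under the filter.

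**Figure D1:**
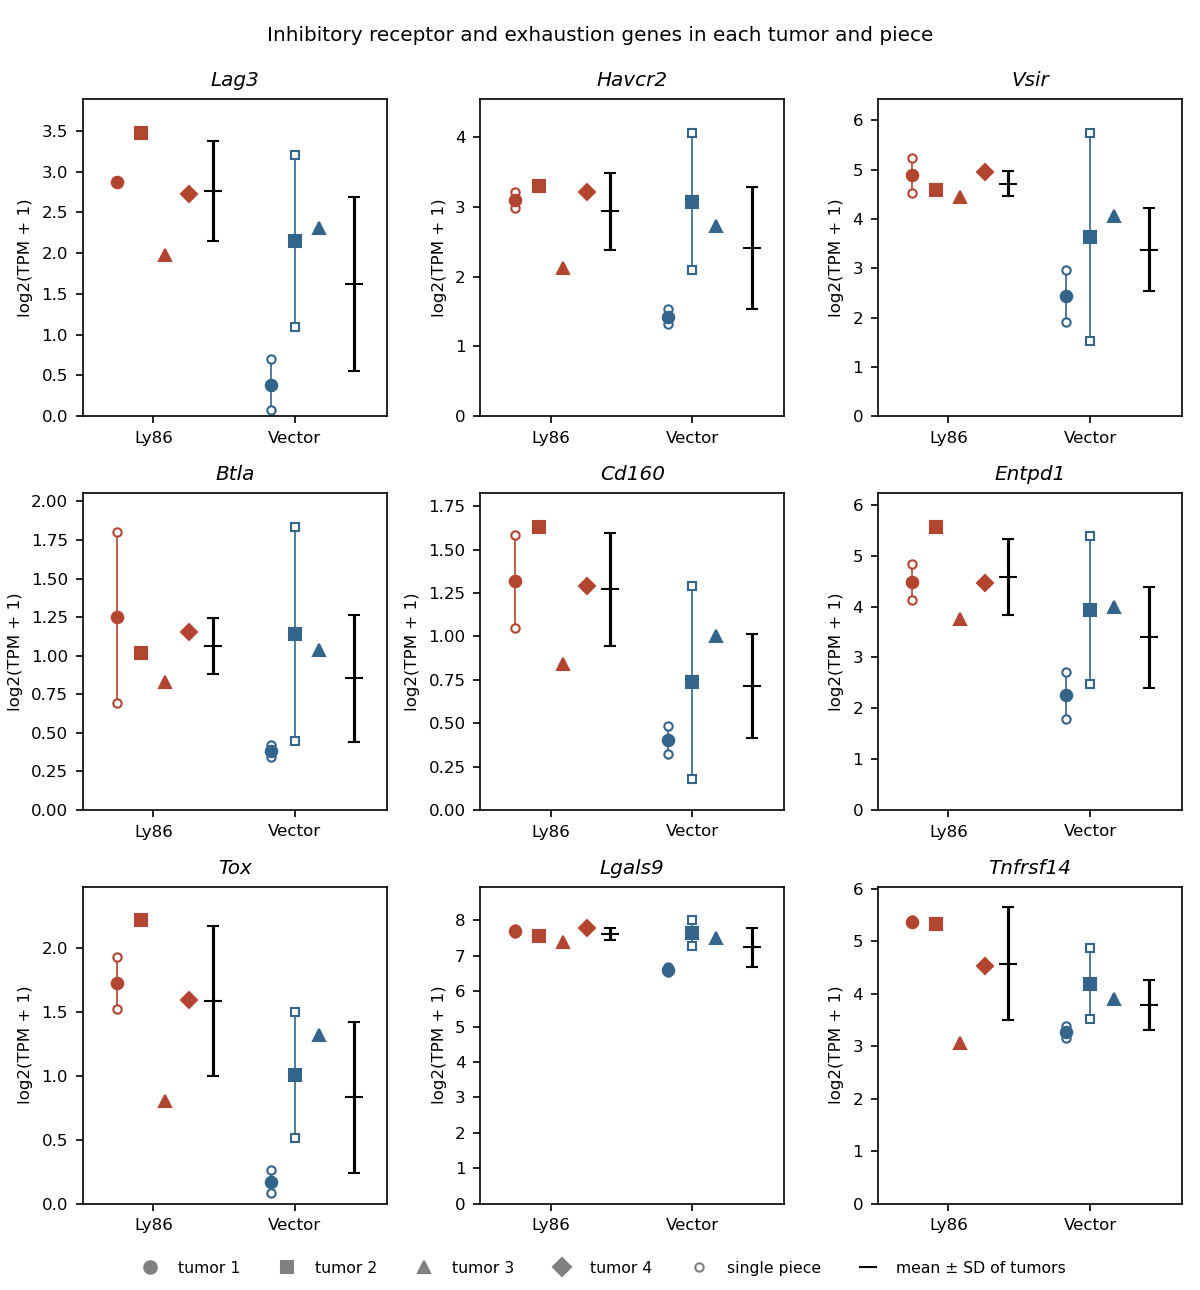
Level of each gene, as log2(TPM + 1), in Ly86 tumors (left, red) and Vector tumors (right, blue). Filled symbols are tumors, open symbols joined by a line are the pieces of a divided tumor (hidden where they coincide with the tumor's symbol), and bars are the mean ± SD of the tumors. Vsir is the 1 panel in which every Ly86 tumor lies above every Vector tumor, and the first piece of Vector tumor 2 is as high as the Ly86 tumors in most panels.

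Among the receptors, Vsir had the largest difference on the log2(TPM + 1) scale. With a pseudocount of 0.1 in place of 1 the order changed, with 1.83 for Lag3 and 1.51 for Vsir. Its libraries held 22.1 and 37.0 TPM in the pieces of Ly86 tumor 1 and 23.0, 20.7 and 30.2 TPM in Ly86 tumors 2 to 4. The Vector libraries held 2.76 and 6.76 TPM in the pieces of tumor 1, 52.7 and 1.88 TPM in those of tumor 2 and 15.6 TPM in tumor 3. The highest and the lowest Vsir value of all 10 libraries thus came from the same Vector tumor. The mean was 4.72 ± 0.25 log2(TPM + 1) in Ly86 tumors and 3.38 ± 0.84 in Vector tumors (SD, n = 4 and 3), a difference of 1.34 (SE 0.36, limma adjusted p = 0.437, 95% interval 0.52 to 2.16). The separation of the groups held for pieces averaged on the log2 scale. Averaged as TPM, Vector tumor 2 had 27.3, within the Ly86 range of 20.7 to 30.2. The difference was 0.87 without Vector tumor 1, 0.72 with the first piece alone of each divided tumor and 1.96 with the second alone.

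Lag3 overlapped between the groups. It held 6.37 and 6.26 TPM in the pieces of Ly86 tumor 1 and 10.1, 2.94 and 5.60 TPM in Ly86 tumors 2 to 4, against 0.63 and 0.05 TPM in the pieces of Vector tumor 1, 8.24 and 1.14 TPM in those of Vector tumor 2 and 3.97 TPM in Vector tumor 3. On the log2 scale Ly86 tumor 3 lay below Vector tumors 2 and 3, and in Vector tumor 1 the gene was close to 0. The log2 difference was 1.14 (SE 0.52, limma adjusted p = 0.479), and 0.53 without Vector tumor 1. It was 0.69 with the first pieces alone and 1.60 with the second pieces alone.

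Havcr2 had 6.90 and 8.29 TPM in the pieces of Ly86 tumor 1 and 8.87, 3.34 and 8.33 TPM in Ly86 tumors 2 to 4. The Vector libraries held 1.49 and 1.91 TPM in the pieces of tumor 1, 15.7 and 3.27 TPM in those of tumor 2 and 5.65 TPM in tumor 3. Its highest library was a Vector one, and Ly86 tumor 3 lay below Vector tumors 2 and 3. The log2 difference was 0.52 (SE 0.44, limma adjusted p = 0.701), which became 0.03 without Vector tumor 1.

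The receptors that bind HVEM were both scarce. Cd160 held 0.79 to 2.10 TPM in the Ly86 libraries and 0.13 to 1.45 TPM in the Vector libraries, and Btla 0.62 to 2.49 TPM in the Ly86 libraries and 0.27 to 2.57 TPM in the Vector libraries. Their log2 differences were 0.56 (SE 0.29) for Cd160 and 0.21 (SE 0.28) for Btla, with limma adjusted p of 0.520 and 0.829. The size of such low genes depends on the pseudocount, and with 0.1 it was 1.18 for Cd160 and 0.53 for Btla. Btla changed sign, to -0.03, without Vector tumor 1. Cd160 shares 68 exon bases with Pdzk1 on the opposite strand in the GENCODE M21 annotation. Since nothing says whether the counting used strand, reads from these shared bases cannot be told apart. Cd160 is also known from NK cells and Btla from B cells. The highest of the NK markers, Klrb1c and Klre1, averaged 0.88 TPM over the tumors. The B cell markers ranged from 0.05 TPM for Ms4a1 to 1.78 TPM for Cd79b, which was above the mean of Btla, 1.06 TPM. The part of NK and B cells in the Cd160 and Btla values was not tested.

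The ligand genes varied in different groups. Lgals9 was even across the Ly86 libraries, at 199.8 and 216.4 TPM in the pieces of tumor 1 and 188.9, 167.0 and 219.3 TPM in tumors 2 to 4. In the Vector group it held 101.0 and 92.2 TPM in the pieces of tumor 1, 253.8 and 152.3 TPM in those of tumor 2 and 178.2 TPM in tumor 3. Vector tumor 1 was the low one, and Vector tumors 2 and 3 fell among the Ly86 tumors. For Lgals9 the log2 difference was 0.37 (SE 0.24, limma adjusted p = 0.598) and 0.06 without Vector tumor 1.

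Tnfrsf14 varied within the Ly86 group instead. It held 39.6 and 41.2 TPM in the pieces of Ly86 tumor 1 and 39.3, 7.40 and 22.2 TPM in Ly86 tumors 2 to 4, against 7.99 and 9.44 TPM in the pieces of Vector tumor 1, 28.4 and 10.4 TPM in those of Vector tumor 2 and 13.9 TPM in Vector tumor 3. Ly86 tumor 3 had the lowest Tnfrsf14 value of all 10 libraries, while the pieces of Ly86 tumor 1 and Ly86 tumor 2 had the 3 highest. The log2 difference was 0.79 (SE 0.54, limma adjusted p = 0.626) and 1.29 without Ly86 tumor 3.

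The ectoenzyme gene Entpd1 and the nuclear factor gene Tox shared a pattern in which Ly86 tumor 2 was highest and Ly86 tumor 3 lowest of its group. Entpd1 held 16.6 and 27.6 TPM in the pieces of Ly86 tumor 1 and 46.6, 12.6 and 21.2 TPM in Ly86 tumors 2 to 4, against 2.47 and 5.57 TPM in the pieces of Vector tumor 1, 41.0 and 4.59 TPM in those of Vector tumor 2 and 14.9 TPM in Vector tumor 3. Tox held 2.80 and 1.87 TPM in the pieces of Ly86 tumor 1 and 3.64, 0.74 and 2.02 TPM in Ly86 tumors 2 to 4, against 0.20 and 0.06 TPM in the pieces of Vector tumor 1, 1.83 and 0.43 TPM in those of Vector tumor 2 and 1.49 TPM in Vector tumor 3. In both genes Ly86 tumor 3 lay below Vector tumors 2 and 3. The log2 differences were 1.18 (SE 0.52) for Entpd1 and 0.75 (SE 0.41) for Tox, with limma adjusted p of 0.468 and 0.540. Without Vector tumor 1 they were 0.61 and 0.42, and with a pseudocount of 0.1 the difference of Tox was 1.50. The part of endothelium, which also carries CD39, in the Entpd1 values was not tested. Tox shares 260 exon bases with Gm11802 on the opposite strand, with the same limit as for Cd160.

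The genes were next set against the T cell and myeloid scores, to separate those that follow T cells from those that follow myeloid cells. Over the 7 tumors the scores had a Pearson r of 0.92 with each other, which left little room to separate them. A gene was put with the score to which its r was larger by at least 0.1. By that rule Vsir went with the myeloid score and Tnfrsf14 with the T cell score, and the other 7 with neither. Among all 14556 genes tested, 38.3% had an r larger by 0.1 to the T cell score and 23.5% to the myeloid score.

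Vsir followed the myeloid markers closely. Its r to the myeloid score was 0.97 (rho 1.00) and to the T cell score 0.86 (rho 0.79). Without Vector tumor 1, which was low in both scores, r over the other 6 tumors was 0.98 to the myeloid score and 0.49 to the T cell score. Leaving out the 2 tumors farthest from the median of a score left 5, a different set for each score, and r was then 0.97 to the myeloid score and 0.35 to the T cell score, so the relation to T cells rested on the tumors left out, Vector tumors 1 and 3. The exact permutation p of the myeloid relation was 0.000198 for r, the smallest that the pairings of 7 tumors allow, and 0.000397 for rho. Adjusted over all genes tested it was 0.0875, and 0 of 14556 genes (0.0%) passed for either score. With values centred on the group means, r was 0.97 to the myeloid score and 0.78 to the T cell score. No r is given within a group, since each held too few tumors.

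Tnfrsf14 was the reverse, with an r of 0.81 (rho 0.89) to the T cell score and 0.61 (rho 0.64) to the myeloid score. The exact permutation p was 0.0141 for T cells and 0.129 for myeloid cells, adjusted 0.155 and 0.480 over all genes tested. Without Vector tumor 1 r was 0.90 to the T cell score and 0.56 to the myeloid score, and without the 2 farthest tumors of each score it was 0.99 and 0.62. Without Ly86 tumor 3 its r to T cells was 0.08 larger, under the margin. For Vsir the difference of r, T cell minus myeloid, was -0.11 over the 7 tumors, -0.08 without Ly86 tumor 3, -0.05 without Vector tumor 2 and -0.05 with the first pieces alone, so in these 3 cases it too was put with neither.

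**Figure D2:**
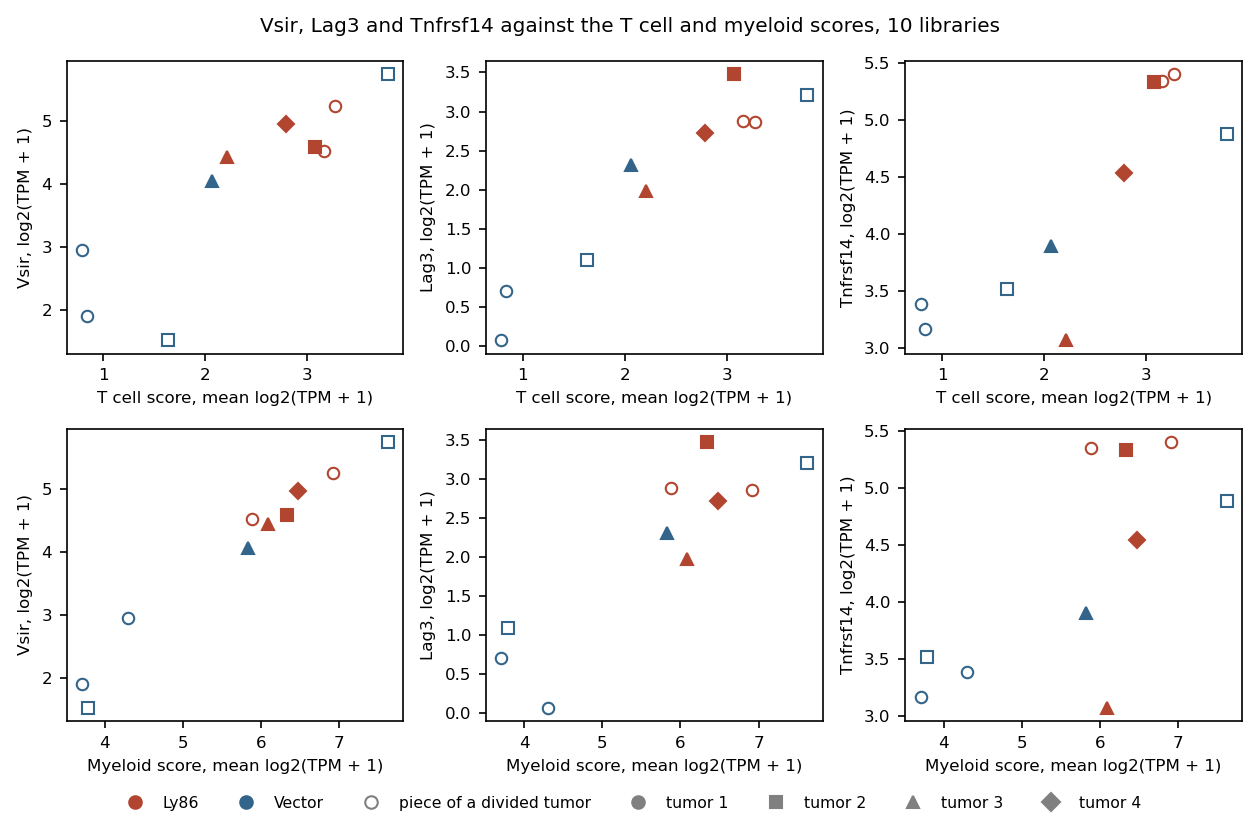
Vsir (left), Lag3 (middle) and Tnfrsf14 (right) in the 10 libraries against the T cell score (top) and the myeloid score (bottom), all in log2(TPM + 1). Red is Ly86 and blue Vector, symbols give the tumor number and open symbols are pieces. Vsir lies nearly on a line against the myeloid score, and Ly86 tumor 3, at 7.40 TPM of Tnfrsf14, is the lowest point of both Tnfrsf14 panels.

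The other 7 genes correlated with both scores, with r from 0.83 to 0.94 to the T cell score and from 0.83 to 0.95 to the myeloid score. Of the 18 relations computed, the 14 of these genes had exact permutation p between 0.00556 and 0.0458, and none passed when adjusted over all genes tested (0.117 to 0.303). Their rho ranged from 0.71 to 0.86 for T cells and from 0.64 to 0.82 for myeloid cells, with exact permutation p from 0.0238 to 0.139. Over the 6 tumors without Vector tumor 1, Havcr2 had an r of 0.77 to the T cell score and 0.36 to the myeloid score, Btla 0.66 and 0.24, and Lgals9 0.71 and 0.52. Lag3 had 0.76 and 0.68, Tox 0.71 and 0.66, Entpd1 0.69 and 0.61, and Cd160 0.67 and 0.80. All 14 relations were thus weaker without this 1 tumor. With the 2 farthest tumors of the myeloid score left out, Vector tumor 1 and Ly86 tumor 4, r to that score was 0.24 for Havcr2, 0.12 for Btla and 0.28 for Lgals9, so these relations rested on the tumors left out, and it was 0.67 to 0.82 for the other 4 genes. With those of the T cell score left out, r to that score was 0.66 to 0.85 for the 7 genes.

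The pieces of the divided tumors gave a second view, since in 2 of the 3 tumors the myeloid score differed between pieces while the T cell score hardly did. Differences are given as first minus second piece, in log2 units. In Ly86 tumor 1 the myeloid score differed by -1.03, that is, the second piece was higher, and the T cell score by -0.12. The fibroblast score differed by -0.40 and the endothelial score by -0.14. There Vsir differed by -0.72, Entpd1 by -0.70, Btla by -1.11 and Cd160 by -0.54. Lag3 differed by 0.02, Tnfrsf14 by -0.06, Lgals9 by -0.11, Havcr2 by -0.23 and Tox by 0.40. The first 4 of these genes were thus higher in the piece with more myeloid signal, and Lag3 and Tnfrsf14 were close to level. In Vector tumor 1 the myeloid score differed by -0.59 and the T cell score by 0.05, while the fibroblast score differed by -1.64 and the endothelial score by -0.62. Vsir differed by -1.05 and Entpd1 by -0.92 there, Havcr2 and Tnfrsf14 each by -0.22 and Cd160 by -0.16, whereas Lag3 differed by 0.63, Tox by 0.18, Lgals9 by 0.13 and Btla by 0.08. Vsir, Entpd1, Cd160 and Havcr2 thus differed in the direction of the myeloid score in both tumors, Vsir and Entpd1 most. Tnfrsf14 did so too, but by only -0.06 in Ly86 tumor 1. Btla and Lgals9 did so in Ly86 tumor 1 alone, and Lag3 and Tox in neither. In Ly86 tumor 1 the differences of Tnfrsf14 and Lgals9 were no larger than that of the T cell score. The fibroblast and endothelial scores moved in the same direction as the myeloid score, and the part of each cell type was not tested. With 1 pair of pieces a tumor no test was made, and for genes near 1 TPM such as Btla, Cd160, Tox and, in Vector tumor 1, Lag3 the difference rests on low values.

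In Vector tumor 2 every gene of the list was higher in the first piece. The myeloid score was 3.84 log2 units higher and the T cell score 2.16, the fibroblast score 5.37 and the endothelial score 2.02. Vsir was 4.22 higher, Entpd1 2.91, Lag3 2.11 and Havcr2 1.97, and the smallest difference was 0.73, in Lgals9. All 4 scores were higher in that piece, so this tumor does not separate them.

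**Figure D3:**
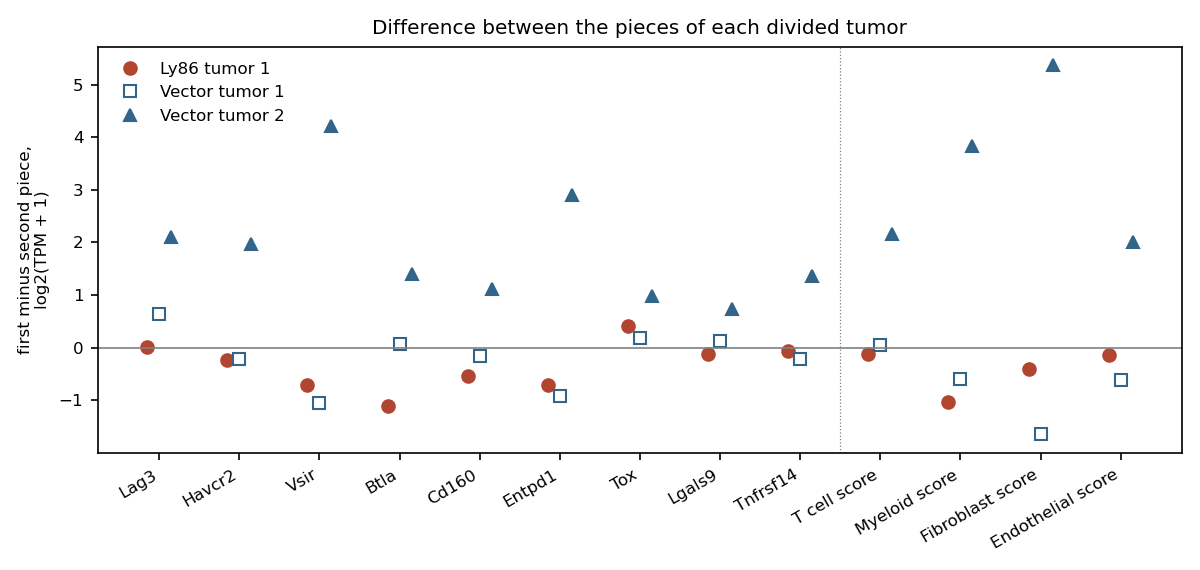
First minus second piece of each divided tumor, in log2(TPM + 1), for the 9 genes and, right of the dotted line, the T cell, myeloid, fibroblast and endothelial scores. Red circles are Ly86 tumor 1, open blue squares Vector tumor 1 and blue triangles Vector tumor 2; Vsir and Entpd1 lie below 0 together with the myeloid, fibroblast and endothelial scores in Ly86 tumor 1 and Vector tumor 1, and all points of Vector tumor 2 are above 0.

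Fits with a score as a covariate compared Ly86 with Vector tumors at equal marker level. With the T cell score in the fit, the difference of Vsir was 0.74 (SE 0.31, limma adjusted p = 0.569), and those of the other genes lay between -0.38 for Havcr2 and 0.26 for Cd160. With the myeloid score it was 0.39 for Vsir (SE 0.21, limma adjusted p = 0.990), 0.02 for both Entpd1 and Tox, -0.11 for Lag3 and -0.52 for Havcr2. In each of the 2 fits the estimate was above 0 for 5 of 9 genes, where it was above 0 for 41.3% of all genes with the T cell score and 40.9% with the myeloid score. For Entpd1 and Tox with the myeloid score the SE was 0.49 each, so their sign is not defined. Estimates were also smaller than their SE for Lag3, Btla, Cd160 and Tnfrsf14 with either score. The same held for Entpd1, Tox and Lgals9 with the T cell score, so none of these signs is defined. Apart from Vsir, every estimate above 0 was smaller than its SE. The negative estimates of Havcr2 exceeded their SE, with limma adjusted p of 0.663 with the T cell score and 0.990 with the myeloid score. So did that of Lgals9 with the myeloid score, -0.26 (SE 0.14, limma adjusted p = 0.990). Since the scores themselves differed between the groups, group and score cannot be told apart fully with 7 tumors.

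**Figure D4:**
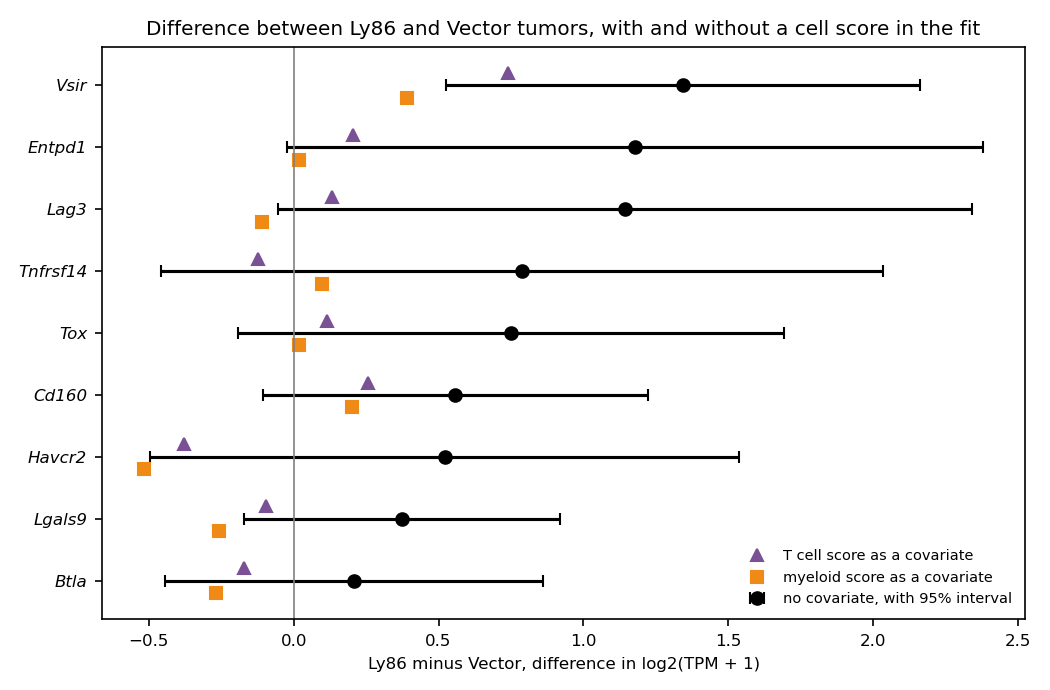
Ly86 minus Vector difference in log2(TPM + 1) for each gene. Black points with 95% intervals are the fit without a covariate, triangles the fit with the T cell score and squares the fit with the myeloid score. Vsir alone has an interval above 0 without a covariate (0.52 to 2.16), and with either score the other 8 genes lie between -0.52 and 0.26.

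Within the list, Lag3, Entpd1, Tox and Cd160 varied most alike over the 7 tumors, with a Pearson r between 0.95 and 0.99 for each pair, and Btla with Lgals9 had 0.97. Vsir and Tnfrsf14 were least alike, at 0.61. Over the 10 libraries, pieces of a tumor included, the gene most like Lag3 was Cd8a, the coreceptor of cytotoxic T cells (r = 0.98), followed by Cd3g and Lair1. Those most like Vsir were Hhex, Clec4a3 and Tm6sf1 (0.99 to 1.00), of which Clec4a3 encodes a myeloid lectin. Lgals9 was most like Serpina3g, Cxcl9 and Gbp5 (each 0.99), Cxcl9 and Gbp5 being interferon gamma targets. For Tox they were Rapgef5, Cxcr6 and Rcbtb2 (0.96), Cxcr6 being a chemokine receptor of tissue T cells. For Havcr2 they were Irf2, Apol7e and Ripk1 (0.98 to 0.99), for Entpd1 Cd300a, Angpt1 and Tmem86a (0.97 to 0.98) and for Tnfrsf14 Cflar, Zbtb4 and Asb13 (0.97 to 0.98). Cd160 was most like Gvin3, Tlr9 and Naip2 (0.97 to 0.98) and Btla most like Gpr35, Prcp and Klrb1b (0.97). These are the top 3 of 14556 genes over few libraries that share tumors, and are a description.

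Ligands, partners and adenosine pathway genes had no common direction. Of 16 listed, 12 were tested, 8 with a higher and 4 with a lower mean in Ly86 tumors, where 43.8% of all genes had a higher mean. Their median difference was 0.05. Under quantile normalization 6 were higher and 6 lower. At an unadjusted p under 0.05 there were 2 higher, Lgals3 and Selplg, and 1 lower, Hmgb1. Of all genes, 5.78% were higher and 4.97% lower at that level. None passed in limma adjusted over all genes. Fgl1, a ligand of Lag3, Clec4g, Tnfsf14, which encodes the HVEM ligand LIGHT, and Lta averaged below 1 TPM and were not tested.

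Lgals3 encodes galectin-3, which binds Lag3 and is abundant in macrophages. It was 9.14, 9.09, 8.90 and 9.04 log2(TPM + 1) in Ly86 tumors 1 to 4 and 7.40, 8.49 and 8.27 in Vector tumors 1 to 3. These groups did not overlap, as in 4.71% of all genes in that direction, and the difference was 0.99 (SE 0.23, limma adjusted p = 0.437). It was 0.67 without Vector tumor 1 and 0.51 with the first pieces alone. Hmgb1, a chromatin protein that Havcr2 binds when it is released, was 9.37, 9.29, 9.43 and 9.36 in Ly86 tumors 1 to 4 and 9.92, 9.59 and 9.76 in Vector tumors 1 to 3. These groups did not overlap either, as in 5.75% of all genes in that direction, and the difference was -0.39 (SE 0.10, limma adjusted p = 0.437). For Hmgb1 it became -0.31 without Vector tumor 1 and -0.30 with the first pieces alone. As a covariate the T cell score gave -0.25 and the myeloid score -0.24. Selplg, which encodes PSGL-1, a partner of VISTA, differed by 1.23 (SE 0.52, limma adjusted p = 0.456) and by 0.50 without Vector tumor 1. With the myeloid score as a covariate the estimate was -0.22 for Selplg and 0.37 for Lgals3, and with the T cell score 0.17 and 0.51. Bag6, an intracellular partner of Havcr2, differed by -0.38 (SE 0.19, limma adjusted p = 0.510) and by -0.23 without Ly86 tumor 3.

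Transcription factors of exhaustion and of effector or memory T cells had a median difference of 0.23. Of 18 listed, 15 were tested, 11 with a higher and 4 with a lower mean in Ly86 tumors, where 43.8% of all genes had a higher mean. Under quantile normalization 10 of 14 tested were higher, and the median was 0.09. At an unadjusted p under 0.05 there were 2 higher, Id2 and Batf, and 1 lower, Nr4a1, where 5.78% of all genes were higher and 4.97% lower at that level, and none passed in limma adjusted over all genes. Batf, which acts with Irf4 in activated T cells, differed by 0.32 (SE 0.14, adjusted p = 0.462) and its groups did not overlap, as in 4.71% of all genes in that direction, with 3.94 to 4.29 log2(TPM + 1) in Ly86 tumors and 3.64 to 3.87 in Vector tumors. Id2, an inhibitor of E proteins, differed by 0.30 (SE 0.10, adjusted p = 0.441) and Nr4a1, which T cell receptor signals induce, by -0.25 (SE 0.11, adjusted p = 0.457). Tbx21, which encodes T-bet, differed by 0.68 (SE 0.36, adjusted p = 0.537), by 1.60 with a pseudocount of 0.1, by 0.40 without Vector tumor 1 and by 0.09 with the T cell score as a covariate. With the first pieces alone the differences were 0.16 for Batf, 0.13 for Id2 and -0.08 for Nr4a1. With the T cell score as a covariate they were 0.19 for Batf, 0.41 for Id2 and -0.40 for Nr4a1. With the myeloid score they were 0.15 for Batf, 0.45 for Id2, -0.41 for Nr4a1 and 0.08 for Tbx21. The estimates of Id2 and Nr4a1 were thus larger in size with either score, and none of these passed when adjusted. Tox2, Tox3 and Bach2 averaged below 1 TPM. Id2 averaged 146.4 TPM and Nr4a1 77.7 TPM over the tumors, where the highest of the T cell markers, Trbc2, averaged 20.0 TPM. Which cells the RNA of these factors came from was not tested. The Id2 values were 7.17 to 7.42 log2(TPM + 1) in Ly86 tumors and 6.90 to 7.17 in Vector tumors, and those of Nr4a1 6.08 to 6.30 in Ly86 tumors and 6.27 to 6.57 in Vector tumors, so that both overlapped narrowly.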

How the data were processed

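Per the labels, RNA of snap-frozen B16F10 tumors was extracted with TRIzol and polyadenylated RNA was sequenced on an Illumina NovaSeq system. The submitters' processing notes name STAR 2.7.10b, RSEM 1.3.3 and mm39. The authors deposited log2(TPM + 1) values, a scale not stated in the sources used here. It was read from the values: 99.9% of them give a TPM that is a multiple of 0.01 (to within 1e-04 hundredths), and TPM summed to between 994679 and 996446 per library. No column was left unmapped.

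Pieces of a tumor were averaged as log2 values. The 14556 genes whose TPM, averaged over tumors, reached 1 were tested with limma 3.58.1 in R 4.3.3 (lmFit, eBayes with trend), Ly86 minus Vector, with Benjamini-Hochberg adjustment over all of them and a threshold of 0.05. The fit was tested on simulated data. A score is the mean log2(TPM + 1) of a marker list. Correlations over the 7 tumors used exact two-sided permutation over all pairings, adjusted over the same genes. The genes, marker lists, partner lists and tests were chosen with earlier results of these data known. Of each partner list the 4 genes with the smallest p were named, and for each member the 3 genes most like it. Alternatives changed the pseudocount, filter, scaling, treatment of pieces, variance model, covariates, replicate block and tumors included. Coordinates and promoters are RefSeq's on GRCm38.p6, read by symbol, and exon overlaps are from GENCODE M21 on the same build. Figures were drawn with matplotlib 3.10.9.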

Additional observations from a re-analysis of the deposited data

How the results depend on the processing

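No member passed the threshold in limma under any alternative run, with adjusted p from 0.0844 (Vsir with array weights) to 1.00. The number of members at an unadjusted p under 0.05 was 1 in the reported fit, 6 without Ly86 tumor 3, 3 without Vector tumor 3, 5 with the second pieces alone, 5 when the first piece of Vector tumor 2 was dropped and 0 with the first pieces alone. Over all genes tested the share at that level was 10.8% in the reported fit and 9.67%, 6.93%, 22.7%, 20.6% and 2.15% in these settings, in that order. The count over all genes, 0 in the reported fit with 1565 at an unadjusted p under 0.05, was 1832 with array weights, 37 with the second pieces alone, 3 without the first piece of Vector tumor 2, 1 with the first pieces alone, 1 with the myeloid score as a covariate and 0 to 2 when a tumor was left out. Of the partner and factor genes named above, Lgals3, Hmgb1, Id2 and Nr4a1 passed with array weights, and none of them in another setting. Their limma adjusted p was then 0.0231, 0.0217, 0.0241 and 0.0411, where 1832 of 14556 genes passed. The causes were not tested.

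Leaving out a tumor gave differences of 0.87 to 1.68 for Vsir, 0.53 to 1.49 for Lag3, 0.61 to 1.48 for Entpd1, 0.03 to 0.85 for Havcr2, 0.06 to 0.57 for Lgals9, 0.52 to 1.29 for Tnfrsf14, 0.42 to 1.01 for Tox, 0.40 to 0.70 for Cd160 and -0.026 (without Vector tumor 1) to 0.30 for Btla. Btla fell under the filter when Ly86 tumor 1, Vector tumor 2 or only the first piece of Vector tumor 2 was dropped, and Cd160 when Ly86 tumor 2 was. With a pseudocount of 0.1 the differences were 1.83 for Lag3, 1.50 for Tox, 1.18 for Cd160 and 0.53 for Btla. With array weights they were 0.90 for Tnfrsf14, 0.75 for Vsir, 0.69 for Entpd1, 0.58 for Lag3 and 0.39 for Tox. In that fit Cd160 and Havcr2 each had 0.34, Lgals9 0.18 and Btla 0.08. Tnfrsf14 was then the largest, and above its 0.79 in the reported fit. Directions turned to -0.17 for Btla with the first pieces alone; to -0.38 for Havcr2, -0.17 for Btla, -0.094 for Lgals9 and -0.12 for Tnfrsf14 with the T cell score as a covariate; and to -0.52 for Havcr2, -0.27 for Btla, -0.26 for Lgals9 and -0.11 for Lag3 with the myeloid score. With the T cell score the SE was 0.31 for Btla, 0.15 for Lgals9 and 0.49 for Tnfrsf14. With the myeloid score it was 0.38 for Btla and 0.43 for Lag3. The reversed estimates whose SE is given here were smaller than it, so their signs are not defined. Those of Havcr2 (SE 0.255 with the T cell score and 0.38 with the myeloid score) exceeded their SE. That of Lgals9 with the myeloid score (SE 0.14) did too. The members with a higher mean numbered 5 with either covariate, and 5 of the 5 tested at a minimum of 5 TPM. Without a tumor they numbered 8 to 9, of 8 or 9 tested.

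The members put with the T cell score numbered 2 over 10 libraries, 2 with the first pieces, 4 with the second pieces, 2 when the first piece of Vector tumor 2 was dropped, and 0 to 4 when a tumor was left out, and those put with the myeloid score 0 to 2 in the last case. Without Vector tumor 1, the difference of r, T cell minus myeloid, was 0.42 for Btla, 0.40 for Havcr2, 0.34 for Tnfrsf14, 0.19 for Lgals9, -0.13 for Cd160 and -0.49 for Vsir. With the tumor number as a replicate block in tumors 1 to 3, the difference of Vsir was 1.26 and 0 genes passed, with 648 at an unadjusted p under 0.05. Same-numbered tumors had deviations from the group mean correlated at -0.17, -0.11 and -0.31, and differently numbered ones at -0.09 to 0.35. Deviations from the mean of so few tumors depend on each other, so these values cannot tell whether equal numbers mark anything shared. Depth is unknown, so the precision of the genes near 1 TPM, Btla, Cd160 and Tox, cannot be stated.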
